A study of Homo sapiens with 6 samples.

Results

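The 40 genes described here encode nucleolar proteins and factors that assemble ribosomes: subunits of RNA polymerase I, nucleolar scaffold proteins, small nucleolar RNA (snoRNA) binding proteins and assembly factors of the small and large ribosomal subunits. They were chosen by symbol, and all 40 were found once in each of the 6 tables, among 26374 gene names listed in any of them, with a value of 1 or more in at least 1 library of every pair. Expression was measured by RNA-seq of poly(A)-selected RNA in C4-2B, a human prostate cancer cell line that was derived from LNCaP cells and forms bone metastases. All cells were seeded in a medium in which most of the serum was charcoal-stripped, to imitate castration, and then exposed for 48 h. A first pair of libraries compared vehicle with SR2211 at 5 µM, a second compared another vehicle with XY011 at 5 µM, and the last compared its own vehicle with ENZ, as the labels name it, at 20 µM. SR2211 is an inverse agonist of the nuclear receptor ROR-γ, the target named in the series title, and XY011 is known here by its code name. Titles and agents name these treatments, whereas the text on RNA extraction lists XY018 for the first 2 pairs where XY011 would stand, and SR2211 for the ENZ pair, so groups follow the titles. Each group is 1 library of 1 cell line, so no difference has a replicate check and no p-value is given.

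Ribosome assembly starts in the nucleolus, where RNA polymerase I transcribes the ribosomal DNA repeats into a long precursor RNA. snoRNA-protein particles of the box C/D class methylate that RNA and those of the box H/ACA class convert uridines to pseudouridine, while the small-subunit processome and the pre-60S factors fold and cut it and add ribosomal proteins. Growing cells spend much of their transcription on this pathway, its genes are classical targets of MYC through the E-box letters CACGTG, and enlarged nucleoli are a long-known histological sign of prostate cancer.

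Those letters were searched in the promoters of the members, with their changes already known, as a description of the genes and not of the treatments. RefSeq promoter windows (GRCh38.p14, 250 bases before to 50 after a transcript start) were matched for 34 of the 40 genes, in 41 windows, and NOP58, RRS1, RRP1B, RRP12, NOLC1 and BOP1 had no entry. CACGTG, which reads the same on both strands, was found in at least 1 window of 15 of the 34 (44.1%), against 8.78% of 27305 genes with a window and 13.0% of the 9799 that were also tested in the SR2211 pair. The letters TATAAA, on either strand, were in 2 of the 34 (5.88%), against 14.0% of all genes with a window and 7.94% of those tested. Of 16 CACGTG matches, 12 lay after the start, 1 across it and 3 before it, of which 1 was more than 50 bases away. A set of 8 of the motif-bearing members are shown, 6 that were lower with both SR2211 and XY011 and then GNL3 and DDX21, which were higher with both, chosen with their values known. EBNA1BP2 had 2 matches, and the one shown is the far match, 237 bases before a start, while the other began at transcript position 43. Capitals mark the motif and up to 12 bases are given on each side, read along the gene's strand.
NOP2: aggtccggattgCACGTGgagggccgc
RRP9: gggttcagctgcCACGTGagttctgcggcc
UTP20: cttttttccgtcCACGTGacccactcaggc
EBNA1BP2: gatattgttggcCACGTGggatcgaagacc
WDR43: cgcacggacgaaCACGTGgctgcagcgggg
FBL: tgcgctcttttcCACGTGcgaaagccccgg
GNL3: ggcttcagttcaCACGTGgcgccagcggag
DDX21: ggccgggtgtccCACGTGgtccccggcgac
The stretches are NOP2 at chr12:6568242-6568268 (minus strand), RRP9 at chr3:51941892-51941921 (minus strand), UTP20 at chr12:101280083-101280112 (plus strand), EBNA1BP2 at chr1:43172790-43172819 (minus strand), WDR43 at chr2:28894658-28894687 (plus strand), FBL at chr19:39846356-39846385 (minus strand), GNL3 at chr3:52686026-52686055 (plus strand) and DDX21 at chr10:68956604-68956633 (plus strand), all in GRCh38.p14, whereas the submitters' processing notes name GRCh37 and hg19. In the SR2211 pair the median log2 change was -0.67 in the 15 members with the motif and -0.60 in the 19 without, in the XY011 pair -0.86 and -0.77, and in the ENZ pair -0.35 and -0.50. With SR2211 the members with the letters ranged from -1.01 to 0.90 and those without from -1.47 to 0.04, so NOP56, the lowest, lacked them and GNL3, the highest, had them. A match is a description of letters, not of a bound factor, and its part in the changes was not tested.

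The tables listed 17602, 16293 and 22738 lines for the SR2211, XY011 and ENZ pairs. Levels are RPKM (reads mapped to a gene, scaled to its length and to the library's mapped reads) in the SR2211 pair and FPKM (the same for fragments) in the others. Depth in the SR2211 pair, read back from microRNA genes of known length, was about 8200243 and 8163382 mapped reads, and the depth of the others is unknown. A change is log2((treated + 1)/(vehicle + 1)) within a pair, taken over the genes at 1 or more in either library (the genes tested, though no statistical test is possible), and a difference counts as called from a log2 size of 1 upward, which is 2-fold. The 8 luminal prostate markers were at 1 or more in all 6 libraries, and their summed level was lower in each treated library (2589 to 857, 2456 to 997 and 4465 to 2675 for SR2211, XY011 and ENZ). In each pair 7 of the 8 were lower, the exception being KRT8 with SR2211 and XY011 and HOXB13 with ENZ. KLK3 weighed most on the falls of these sums (1357 to 212 RPKM, 1315 to 461 FPKM and 2484 to 1487 FPKM). KLK2 went from 211 to 28.2 RPKM, from 216 to 32.8 FPKM and from 868 to 220 FPKM. FOXA1 went from 165 to 92.0 RPKM, from 142 to 50.7 FPKM and from 309 to 299 FPKM. EPCAM went from 73.1 to 60.2 RPKM, from 43.3 to 32.8 FPKM and from 59.7 to 56.4 FPKM. Of 11 markers of basal, fibroblast, leukocyte and endothelial cells, TP63 and CD3E were listed nowhere and PTPRC was listed at 0.15 and 0.18 FPKM in the XY011 pair alone, while summed levels over each of these cell types ran from 0.221 to 41.1. The leukocyte gene CD68 was listed in all 6 libraries (4.43 to 6.02 RPKM with SR2211, 10.05 to 13.1 FPKM with XY011 and 8.62 to 8.40 FPKM with ENZ). The fibroblast gene COL1A1 was higher in each treated library (3.70 to 5.62 RPKM, 2 to 3.45 FPKM and 14.1 to 34.8 FPKM), while COL3A1 was lower where listed (0.0444 to 0.0223 RPKM with SR2211 and 0.983 to 0.879 FPKM with ENZ) and COL1A2, listed in the ENZ pair, went from 5.09 to 5.43 FPKM. The basal gene KRT14 was lower in each treated library (1.33 to 0.296 RPKM, 3.02 to 0.8 FPKM and 3.39 to 1.53 FPKM). The part of these marker shifts in the changes of the members was not tested. Every library is of the C4-2B line, so levels of these markers are not read as a mix of cell types. As values are shares of each library, less RNA in every cell and a change in part of the cells cannot be told apart.

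In vehicle the members were mostly abundant. Their median level was 32.3 RPKM in the SR2211 pair, 30.9 FPKM in the XY011 pair and 50.2 FPKM in the ENZ pair, and 10, 12 and 9 of them lay among the top 10% of genes tested. NPM1 was the highest member of all 3 vehicles (814 RPKM, 1103 FPKM and 1753 FPKM). PPAN was the lowest in the SR2211 vehicle (3.42 RPKM), and NOC3L in the other two (5.56 and 3.51 FPKM). Between the SR2211 and XY011 vehicles, whose tables were normalized separately, members differed by a median absolute log2 value of 0.23, and 35 of 40 differed by under 0.5. The largest difference between those vehicles was in PPAN, a large-subunit factor, at 3.42 RPKM, 25 FPKM and 81.2 FPKM in the 3 vehicles. Its locus also holds the readthrough gene PPAN-P2RY11, named after its values were seen, at 0.0373 RPKM in the SR2211 vehicle and 6.37 FPKM in the XY011 vehicle, so the level of PPAN is uncertain, and how reads were divided between these genes was not tested.

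Nearly all members were lower in the treated library. With SR2211, 37 of 40 were lower and 7 were called lower, none higher, with a median log2 change of -0.65, where all 12150 genes tested had a median of -0.07 and 5.75% were called lower and 5.1% higher. With XY011, 38 of 40 were lower and 13 were called lower, none higher, with a median of -0.81 against -0.14 for 12614 genes, of which 13.2% were called lower and 7.59% higher. With ENZ, 34 of 40 were lower and 1 was called lower, with a median of -0.39 against -0.02 for 19249 genes, of which 4.67% were called lower and 3.68% higher. The count called with ENZ was thus no higher than the share of all genes. A lower value, whatever the size, was found in 54.4%, 57.7% and 52.3% of all genes in the SR2211, XY011 and ENZ pairs, and in 58.5%, 56.9% and 54.4% of those with a mean of 10 or more. The 7 members called lower with SR2211 became 4 when the pair was centred on its median gene, without NOP2, NOP16 and NOC2L, and 3 after quantile scaling, without NOP58 as well. With XY011 either scaling left 10 lower, without NOP2, RRS1 and WDR12, and GNL3 then passed as higher. Over all genes the share called lower was 4.675% after centring and 4.95% after quantile scaling in the SR2211 pair, and 9.63% and 9.93% in the XY011 pair. Over all genes those scalings moved the share of higher among called genes from 47.0% to 56.1% and 52.5% in the SR2211 pair and from 36.5% to 51.1% and 49.4% in the XY011 pair.

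At a 1.5-fold size, 26 members were lower with SR2211, 27 with XY011 and 8 with ENZ, where 17.2%, 27.8% and 12.4% of all genes passed. GNL3 alone was higher at that size, with SR2211 and with XY011, where 1676 of 12150 and 2144 of 12614 genes tested were higher. Taking only genes with a mean of 10 or more, 6.87%, 12.3% and 2.8% passed the 2-fold size downward. The sum of all 40 levels went from 3046 to 2299 RPKM with SR2211, from 3423 to 2411 FPKM with XY011 and from 5127 to 4195 FPKM with ENZ. The median member kept 62.9% of its vehicle level with SR2211, 55.7% with XY011 and 74.9% with ENZ. Relative to the median gene of each pair, the members' median log2 changes were -0.58, -0.67 and -0.36. The plot of changes by member shows the 3 pairs side by side.

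**Figure D1:**
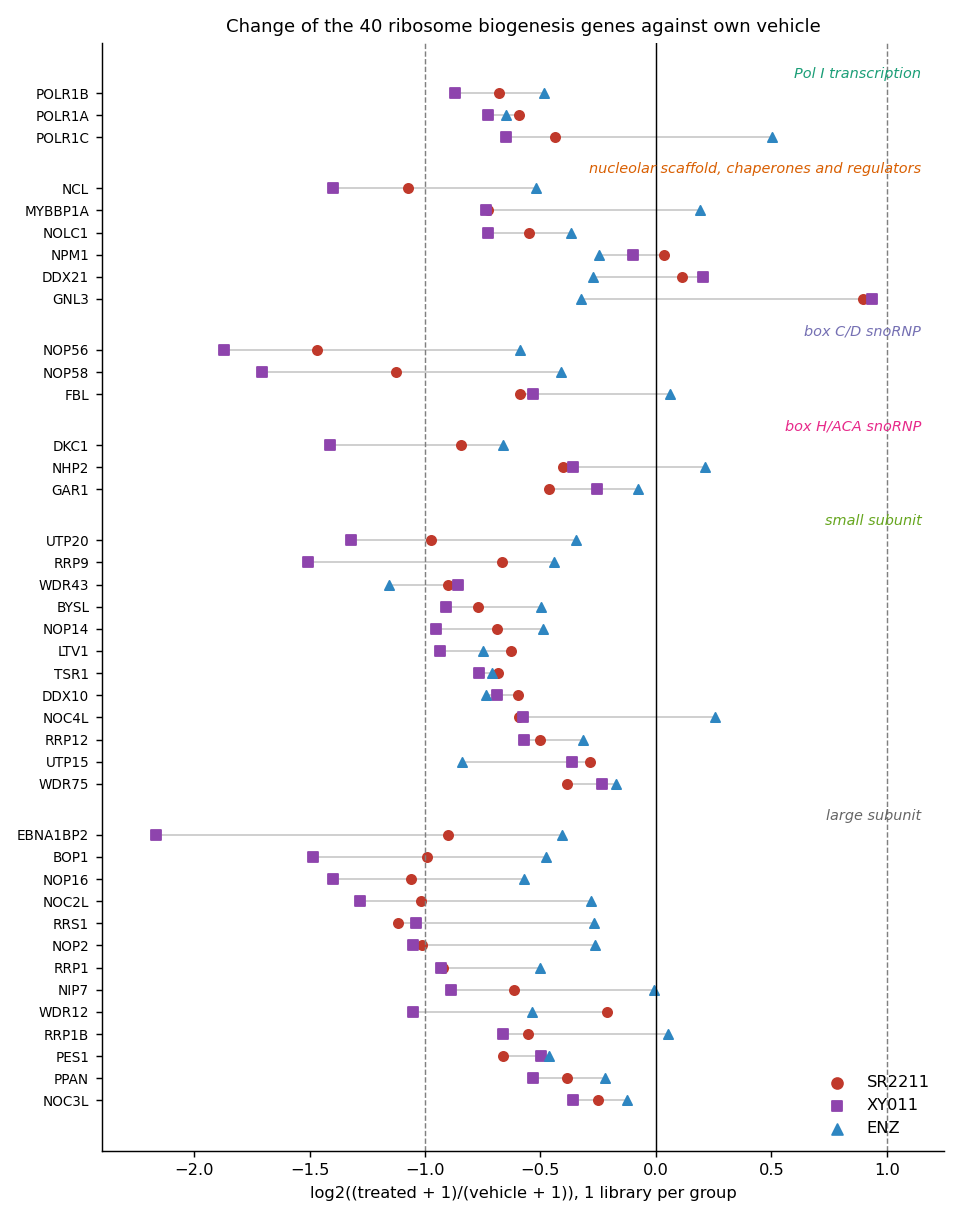
Log2 change (x axis, log2((treated + 1)/(vehicle + 1))) of each of the 40 members (rows, grouped by role) with SR2211 (circles), XY011 (squares) and ENZ (triangles), 1 library per group, with dashed lines at the 2-fold size. Most points lie left of 0, EBNA1BP2 reaches -2.17 with XY011, and GNL3 stands at 0.90 and 0.93 with SR2211 and XY011.

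**Figure D2:**
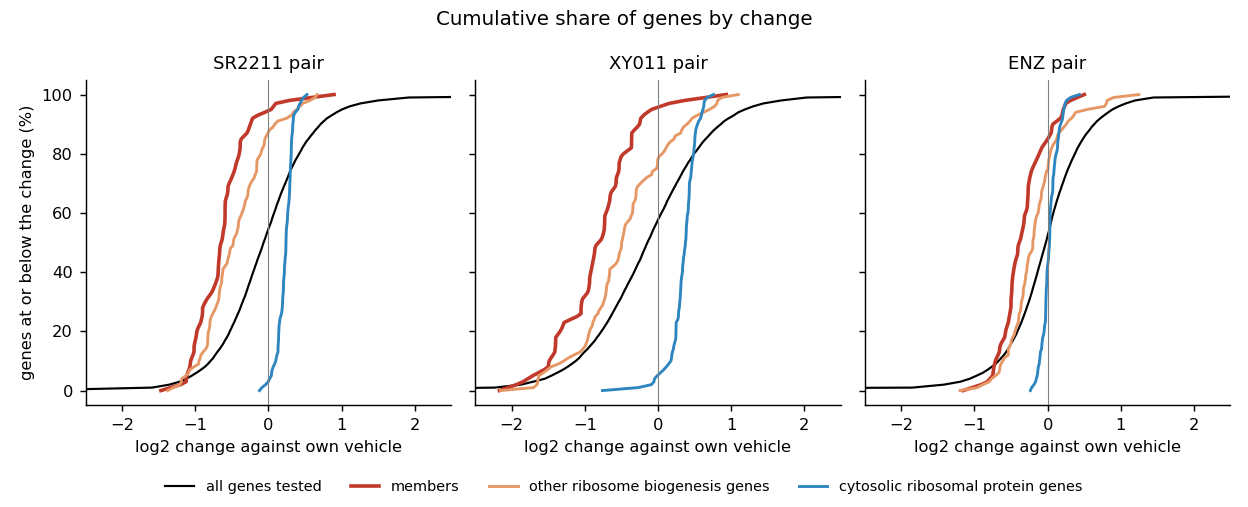
Cumulative percentage of genes (y axis) at or below a log2 change (x axis) in each pair, for all genes tested (black), the 40 members (red), 93 other ribosome biogenesis genes (orange) and 79 cytosolic ribosomal protein genes (blue). The members' curve lies to the left of all genes, with medians of -0.65, -0.81 and -0.39, and that of the ribosomal protein genes lies to the right in the SR2211 and XY011 pairs, with medians of 0.24 and 0.38.

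The 3 members that encode RNA polymerase I subunits were lower by less than 2-fold, except that POLR1C was higher with ENZ. POLR1A and POLR1B encode the 2 largest subunits, which form the catalytic centre, and POLR1C a subunit shared with RNA polymerase III. POLR1A kept 63.9%, 57.4% and 62.05% of its vehicle level with SR2211, XY011 and ENZ, and POLR1B kept 59.9%, 51.4% and 70.0%. POLR1C, the most abundant of the 3 in vehicle, went from 26.2 to 19.1 RPKM with SR2211, from 34.6 to 21.7 FPKM with XY011 and from 36.1 to 51.5 FPKM with ENZ. It was thus lower with SR2211 and XY011 but higher with ENZ (log2 changes of -0.44, -0.65 and 0.50), while its partners were lower in all 3 pairs. None of the 3 reached 2-fold in any pair.

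The nucleolar scaffold, chaperone and regulator genes had both lower and higher members in each pair, with median log2 changes of -0.26, -0.41 and -0.30 over 6 genes with SR2211, XY011 and ENZ. NCL, which encodes nucleolin, an abundant RNA-binding protein of the nucleolus, went from 468 to 222 RPKM with SR2211, from 449.5 to 170.0 FPKM with XY011 and from 658 to 459 FPKM with ENZ (log2 changes of -1.08, -1.40 and -0.52). It was the 1 gene of the group called lower, in the SR2211 and XY011 pairs. NPM1, which encodes nucleophosmin, the scaffold and histone chaperone of the outer nucleolus, moved from 814 to 834 RPKM with SR2211, from 1103 to 1029.5 FPKM with XY011 and from 1753 to 1479 FPKM with ENZ (log2 changes of 0.04, -0.10 and -0.24). Its sign with SR2211 turned to -0.07 after quantile scaling and that with XY011 to 0.04 after centring, so no direction is given for it, and its many processed pseudogenes make its value uncertain. The ratio of NCL to NPM1 within a library therefore went from 0.575 to 0.266 with SR2211, from 0.407 to 0.165 with XY011 and from 0.375 to 0.310 with ENZ.

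GNL3 went against the group. It encodes nucleostemin, a nucleolar GTPase abundant in stem and cancer cells. Its level went from 100.8 to 189 RPKM with SR2211, from 102 to 196 FPKM with XY011 and from 169.8 to 135 FPKM with ENZ (log2 changes of 0.90, 0.93 and -0.32). Treated libraries were the higher ones in the SR2211 and XY011 pairs, with no overlap between both vehicles and both treated values, and it was the 1 member for which this held, where 23.3% of 11633 genes tested in both pairs had both treated values above both vehicles. It missed the 2-fold size as reported, and reached it with SR2211 after quantile scaling (1.01) and with XY011 after centring (1.08) or quantile scaling. DDX21, an RNA helicase gene active in rRNA transcription and processing, went from 138 to 149.9 RPKM with SR2211, from 118 to 136 FPKM with XY011 and from 72.9 to 60.2 FPKM with ENZ (log2 changes of 0.11, 0.20 and -0.27), so it too was slightly higher with SR2211 and XY011 and lower with ENZ. MYBBP1A, a regulator of rDNA transcription, went from 34.02 to 20.2 RPKM with SR2211, from 28.1 to 16.4 FPKM with XY011 and from 62.99 to 72.1 FPKM with ENZ, lower in the first 2 pairs and slightly higher with ENZ (log2 0.19). NOLC1, a chaperone of snoRNA particles, kept 68.1%, 60.1% and 77.3% of its vehicle level with SR2211, XY011 and ENZ.

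**Figure D3:**
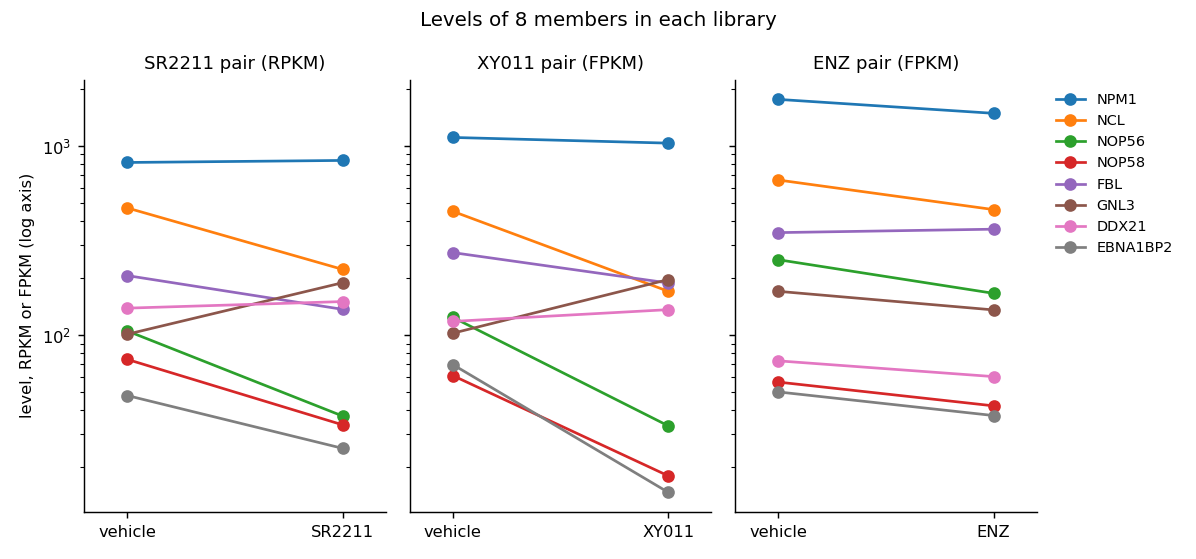
Level (y axis, log scale, RPKM in the SR2211 pair and FPKM in the others) of 8 members in the vehicle and treated library of each pair, each point 1 library and each line 1 gene. NCL, NOP56, NOP58 and EBNA1BP2 slope down in all 3 pairs, NPM1 is nearly flat in the first 2, and GNL3 goes from 100.8 to 189 RPKM with SR2211 and from 102 to 196 FPKM with XY011.

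The core of the box C/D particle did not move as 1 unit. It consists of the rRNA methyltransferase fibrillarin (FBL), the paired scaffold proteins NOP56 and NOP58, and a small RNA-binding protein. NOP56 went from 105 to 37.3 RPKM with SR2211, from 124 to 33.1 FPKM with XY011 and from 249 to 166 FPKM with ENZ (log2 changes of -1.47, -1.87 and -0.59), the largest decrease of all members with SR2211. NOP58 went from 74.3 to 33.5 RPKM with SR2211, from 60.99 to 18.02 FPKM with XY011 and from 56.3 to 42.2 FPKM with ENZ (log2 changes of -1.13, -1.70 and -0.41). Both scaffold genes were called lower in the SR2211 and XY011 pairs and neither with ENZ, but NOP58 with SR2211 fell short of the size after quantile scaling (-0.99). FBL, the most abundant of the 3, went from 206 to 136 RPKM with SR2211, from 272 to 188 FPKM with XY011 and from 347 to 362 FPKM with ENZ (log2 changes of -0.59, -0.53 and 0.06). Within a library, the ratio of NOP56 to FBL went from 0.510 to 0.273 with SR2211, from 0.455 to 0.176 with XY011 and from 0.719 to 0.458 with ENZ, lower in each treated library.

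In the box H/ACA particle the catalytic gene had the largest decrease of the 3 in each pair, whereas in the box C/D core the catalytic gene FBL had the smallest change. DKC1, which encodes the pseudouridine synthase dyskerin, also a telomerase component, kept 55.1% of its level with SR2211, 36.7% with XY011 and 62.9% with ENZ (log2 changes of -0.84, -1.41 and -0.66). GAR1, a core protein gene of the particle, went from 13.4 to 9.47 RPKM with SR2211, from 10.2 to 8.36 FPKM with XY011 and from 14.9 to 14.03 FPKM with ENZ (log2 changes of -0.46, -0.25 and -0.08). NHP2, another core protein gene and the most abundant of the 3 by its mean over the vehicles, went from 110.4 to 83.4 RPKM with SR2211, from 94.2 to 73.1 FPKM with XY011 and from 257 to 298 FPKM with ENZ (log2 changes of -0.40, -0.36 and 0.21). GAR1 and NHP2 thus stayed within a log2 change of 0.5 in all pairs, and NHP2 was the 1 gene of the particle that was higher with ENZ. The ratio of DKC1 to NHP2 went from 0.660 to 0.482 with SR2211, from 0.770 to 0.364 with XY011 and from 0.484 to 0.263 with ENZ.

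All 12 small-subunit genes were lower with SR2211 and with XY011, and 11 of 12 with ENZ, with median log2 changes of -0.65, -0.81 and -0.49. Those of the early processome include UTP15, WDR43 and WDR75, parts of the complex that binds the nascent transcript, and RRP9, a protein of the U3 snoRNA particle. WDR43 went from 38.3 to 20.1 RPKM with SR2211, from 37.7 to 20.4 FPKM with XY011 and from 36.3 to 15.7 FPKM with ENZ (log2 changes of -0.90, -0.86 and -1.15), and it was the 1 member called lower with ENZ. UTP15 went from 12.5 to 10.1 RPKM with SR2211, from 11.3 to 8.58 FPKM with XY011 and from 16.2 to 8.61 FPKM with ENZ (log2 changes of -0.29, -0.36 and -0.84), again with its lowest value relative to vehicle under ENZ. WDR75, of the same complex, went from 30.6 to 23.2 RPKM with SR2211, from 29.9 to 25.3 FPKM with XY011 and from 14.5 to 12.7 FPKM with ENZ (log2 changes of -0.39, -0.23 and -0.17). Within this complex WDR43 and UTP15 thus had their largest change with ENZ, and WDR75 had its largest with SR2211. RRP9 went from 20.2 to 12.3 RPKM with SR2211, from 28.2 to 9.28 FPKM with XY011 and from 26.7 to 19.4 FPKM with ENZ (log2 changes of -0.67, -1.51 and -0.44), called lower with XY011 alone. UTP20, a very large scaffold protein gene, was called lower with XY011 (log2 -1.32) and lay just under the size with SR2211 (-0.97). The helicase gene DDX10 went from 27.1 to 17.6 RPKM with SR2211, from 27.02 to 16.4 FPKM with XY011 and from 34 to 20.0 FPKM with ENZ (log2 changes of -0.60, -0.69 and -0.74), and was thus lower by a like amount in each. NOP14, a processome core gene, had changes of -0.69, -0.95 and -0.49. NOC4L, whose product pairs with that of NOP14, went from 12.3 to 7.79 RPKM with SR2211, from 8.64 to 5.47 FPKM with XY011 and from 13.4 to 16.3 FPKM with ENZ, so it was the 1 small-subunit gene that was higher with ENZ (log2 0.26).

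Later factors of the small subunit, which act on its export and last cuts, were TSR1, LTV1, BYSL and RRP12. TSR1, a GTPase-like gene and the most abundant of the 12 small-subunit genes by its mean over the 3 vehicles, went from 27.5 to 16.7 RPKM with SR2211, from 41.1 to 23.7 FPKM with XY011 and from 96.6 to 58.6 FPKM with ENZ (log2 changes of -0.68, -0.77 and -0.71). LTV1, an export factor gene, went from 29.97 to 19.03 RPKM with SR2211, from 31.9 to 16.2 FPKM with XY011 and from 16.9 to 9.64 FPKM with ENZ (log2 changes of -0.63, -0.94 and -0.75). For both genes the change with ENZ was about the size of that with SR2211. BYSL had changes of -0.77, -0.91 and -0.50 and RRP12 of -0.50, -0.57 and -0.32. TSR1, LTV1, WDR43, UTP15 and DDX10 were the 5 largest decreases with ENZ, all of them small-subunit genes.

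The 13 large-subunit genes were all lower with SR2211 and with XY011, and 12 of them with ENZ, with medians of -0.90, -1.04 and -0.28, and 4, 7 and 0 were called lower. The shares called lower over all genes of these pairs were 5.75%, 13.2% and 4.67%. EBNA1BP2, a pre-60S factor, went from 47.8 to 25.2 RPKM with SR2211, from 69.8 to 14.8 FPKM with XY011 and from 49.98 to 37.5 FPKM with ENZ (log2 changes of -0.90, -2.17 and -0.41), the largest decrease of any member in any pair. NOP16, another pre-60S factor and the most abundant of this group by its mean over the 3 vehicles, went from 47 to 22 RPKM with SR2211, from 58.1 to 21.4 FPKM with XY011 and from 125 to 83.8 FPKM with ENZ (log2 changes of -1.06, -1.40 and -0.57). RRS1, which helps to place the 5S RNA particle, went from 36.1 to 16.1 RPKM with SR2211, from 21.7 to 10.1 FPKM with XY011 and from 44.7 to 36.97 FPKM with ENZ (log2 changes of -1.12, -1.04 and -0.27). These genes were called lower with XY011, NOP16 and RRS1 also with SR2211, and none with ENZ. NOP2, an rRNA cytosine methyltransferase gene, and NOC2L, a gene of pre-60S transport, were also called lower in both of these pairs (log2 -1.01 and -1.05 for NOP2, -1.02 and -1.28 for NOC2L). RRS1 with XY011 no longer passed after centring (-0.89) or quantile scaling (-0.93), and neither did NOP2 under either, in both pairs. With SR2211 the calls of NOP16 (-0.995 after centring and -0.95 after quantile scaling) and NOC2L were also lost under either scaling.

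PES1, BOP1 and WDR12 encode the 3 proteins of the PeBoW complex, which is needed to mature the RNA of the large subunit. BOP1 went from 46.2 to 22.8 RPKM with SR2211, from 24.1 to 7.98 FPKM with XY011 and from 68 to 48.6 FPKM with ENZ (log2 changes of -0.99, -1.48 and -0.48). WDR12 went from 22.5 to 19.3 RPKM with SR2211, from 18.8 to 8.53 FPKM with XY011 and from 75.4 to 51.7 FPKM with ENZ (log2 changes of -0.21, -1.05 and -0.54). Its call with XY011 was lost after centring (-0.91) and after quantile scaling (-0.93). PES1 had changes of -0.66, -0.50 and -0.46, so the 3 partners kept different shares of their vehicle level with SR2211 and XY011 and like shares with ENZ. The ratio of BOP1 to PES1 went from 0.968 to 0.764 with SR2211, from 0.375 to 0.177 with XY011 and from 0.707 to 0.698 with ENZ. That of WDR12 to PES1 went from 0.472 to 0.648, from 0.292 to 0.189 and from 0.784 to 0.742. NOC3L, which acts with NOC2L, had the smallest change of this group with XY011 and went from 5.72 to 4.65 RPKM with SR2211, from 5.56 to 4.12 FPKM with XY011 and from 3.51 to 3.14 FPKM with ENZ. RRP1 and RRP1B are close relatives, and their values are uncertain where reads could be split between them. RRP1 had changes of -0.92, -0.93 and -0.50, and RRP1B of -0.56, -0.66 and 0.05. The remaining genes, NIP7 and PPAN, were between -0.89 and -0.01 in all pairs.

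Counting error could be worked out in the SR2211 pair alone, where values behaved as whole numbers of reads divided by length and depth. The smallest whole read numbers that gave both values at a whole gene length were found for all 40 members, from 49 to 10491 in vehicle. If the true numbers are multiples of these, the ratio stands and its interval is narrower. The exact (Clopper-Pearson) 95% interval of the ratio of RPKM, treated over vehicle, lay below 1 for 35 members, above 1 for 2 and across 1 for 3. It was worked out for the members alone, so these counts have no share over all genes beside them. A lower value of any size was found in 54.4% of all genes of this pair, and in 58.5% of those with a mean of 10 or more. NOP56 had 1932 and 683 reads, a ratio of 0.355 (95% interval 0.325 to 0.388). NCL, with the highest read number so found, had 10491 and 4945 reads, a ratio of 0.473 (95% interval 0.458 to 0.490). GNL3 had 1784 and 3324 reads, a ratio of 1.87 (95% interval 1.77 to 1.98), and DDX21 5492 and 5923 reads, a ratio of 1.08 (95% interval 1.04 to 1.12), the 2 members above 1. NPM1, NOC3L and PPAN were those across 1. These intervals leave out the spread between cultures, which 1 library per group cannot show.

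**Figure D4:**
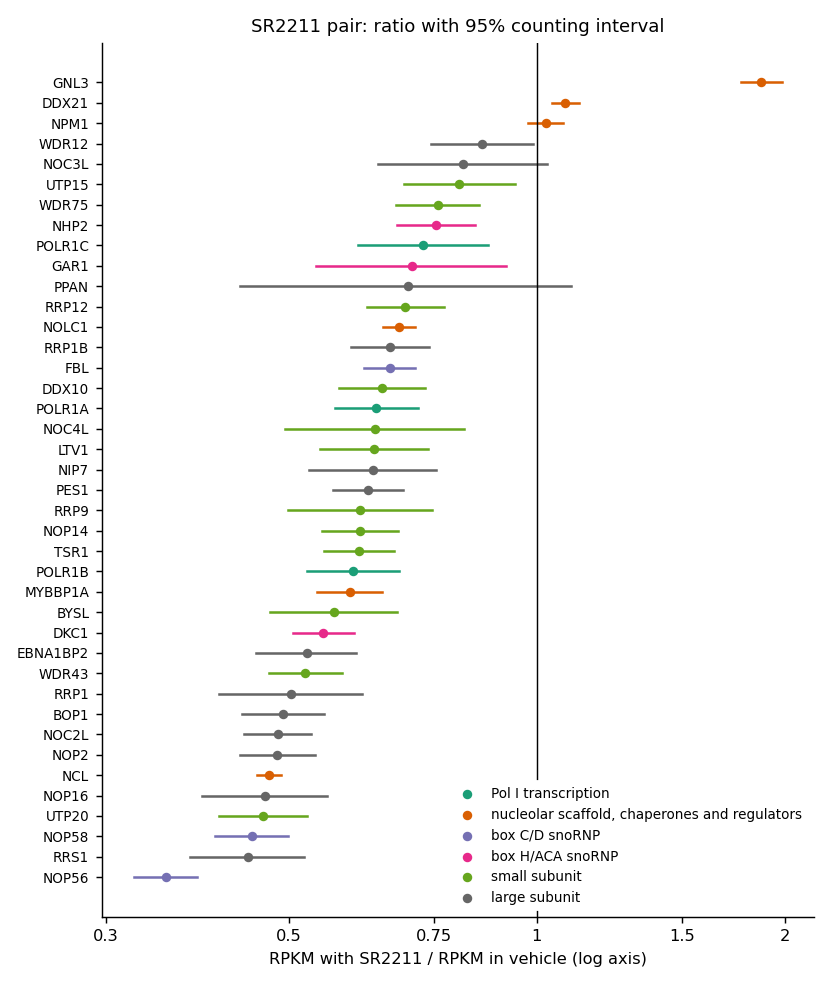
Ratio of RPKM with SR2211 to RPKM in vehicle (x axis, log scale) for each of the 40 members (rows, sorted), with bars for the exact 95% counting interval and colours for the role. Intervals of 35 members end left of 1, NOP56 is lowest at 0.355 and GNL3 highest at 1.87. Intervals were not worked out for other genes.

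SR2211 and XY011 were given at the same dose and time, each with its own vehicle, and their values can be set side by side. In the values as reported, the 7 members called lower with SR2211 were all called lower with XY011 too (17.5% of 40, where 4.58% of 11633 genes tested in both were). XY011 added BOP1, DKC1, EBNA1BP2, RRP9, UTP20 and WDR12, the last of these under neither other scaling. After centring or quantile scaling, RRS1 was still called with SR2211 (-1.05 and -1.01) but not with XY011 (-0.89 and -0.93). Lower values with both were seen in 37 of 40 members, against 45.8% of those genes. For 35 members both treated values lay below both vehicle values, against 31.8% of the genes tested in both. NPM1, DDX21, GNL3, PPAN and WDR12 were the exceptions. The change with XY011 was the more negative in 30 of 40, as it was in 55.7% of all genes, and the median difference, XY011 minus SR2211, was -0.14 on the log2 scale against -0.06 for all genes. Across the 40 members, which share libraries, the changes had a Spearman correlation of 0.84 and a Pearson correlation of 0.87, and across all genes the Spearman correlation was 0.76.

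A difference of 0.5 or more between the compounds was seen in 5 members, against 28.5% of all genes, and all 5 were lower with XY011: EBNA1BP2 (log2 -0.90 with SR2211 and -2.17 with XY011), WDR12 (-0.21 and -1.05), RRP9 (-0.67 and -1.51), NOP58 (-1.13 and -1.70) and DKC1 (-0.84 and -1.41). For EBNA1BP2 the vehicles themselves stood at 47.8 RPKM and 69.8 FPKM, a log2 difference of 0.53. With 1 pair each, no test or interval of a difference between the compounds can be had, and the pairs also differ in unit.

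**Figure D5:**
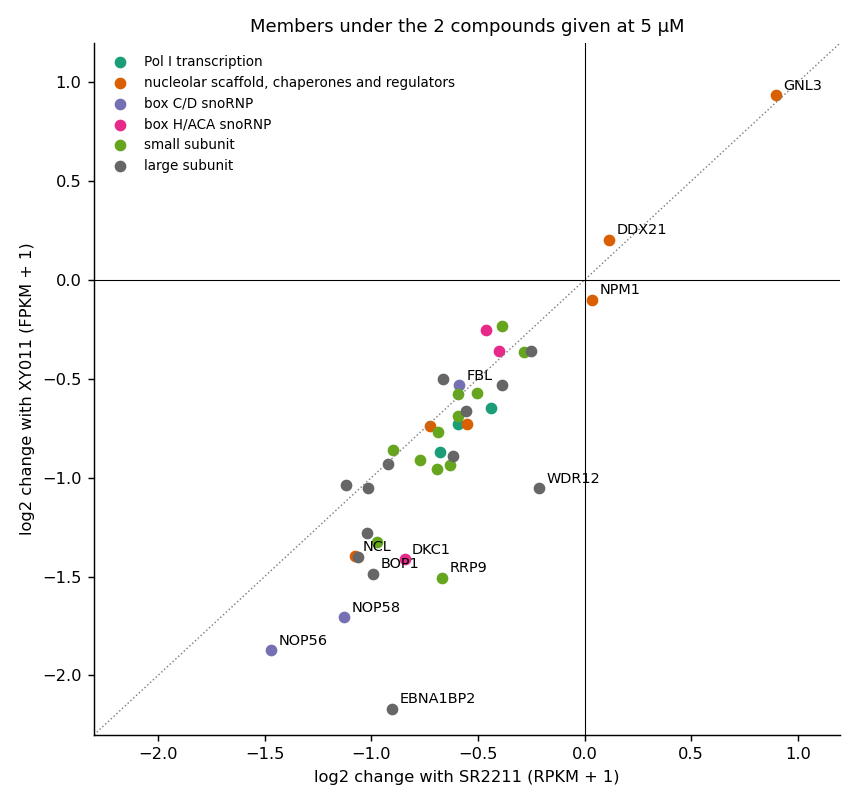
Log2 change with SR2211 (x axis) against log2 change with XY011 (y axis), 1 point per member, coloured by role, with a dotted line where both are equal. Most members lie below 0 on both axes, 30 of 40 lie under the dotted line, and GNL3 and DDX21 lie above 0 on both.

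With ENZ, at another dose, 34 of 40 members were lower, 31 of them lower in all 3 pairs, against 31.4% of 11152 genes tested in all 3. POLR1C, NOC4L, NHP2, MYBBP1A, FBL and RRP1B were higher, by log2 0.50 at most, and after centring or quantile scaling NIP7 joined them. The order of the members under ENZ was not close to that under the other compounds, with Spearman correlations over the 40 of 0.34 with SR2211 and 0.43 with XY011. NOP56 and NOP58, the largest decreases with SR2211, had changes of -0.59 and -0.41, while WDR43 and UTP15 were at -1.15 and -0.84. Whether these orders differ beyond error was not tested.

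Of the other genes of the pathway, 93 listed by role, most had lower values, but most did not reach 2-fold. With SR2211, 8 were called lower and none higher (median log2 -0.48, 81 of 93 lower), with XY011 14 lower and 1 higher (median -0.50, 73 lower), and with ENZ 1 lower and 1 higher (median -0.20, 69 lower). Of all genes, 5.75%, 13.2% and 4.67% were called lower in these pairs, so the counts called at 2-fold alone do not set this list apart. At a 1.5-fold size 39, 39 and 11 of the 93 were lower and 2, 6 and 5 higher. Of all genes, 17.2%, 27.8% and 12.4% were lower at that size, so the lower count with ENZ was no higher than the share of all genes. Higher at that size were 1676 of 12150, 2144 of 12614 and 2235 of 19249 genes tested. For log2 changes with SR2211, XY011 and ENZ in turn, the largest decreases of the first 2 pairs were in the small-subunit gene IMP3 (-1.38, -1.66 and -0.38), the rRNA methyltransferase gene FTSJ3 (-1.29, -2.15 and -0.51), the particle assembly ATPase gene RUVBL1 (-1.19, -1.63 and -0.23) and PAK1IP1 (-1.19, -1.65 and -0.76). Large-subunit export adaptor NMD3 (0.67, 0.80 and -0.31), the polymerase subunit genes ZNRD1 (0.64, 0.33 and -0.20) and POLR1D (0.55, 0.76 and 0.04), RSL24D1 (0.42, 0.85 and -0.16), NOB1 (0.44, 0.81 and 0.01), the nuclease of the last small-subunit cut, and TAF1D (0.37, 1.10 and 0.13) had the largest increases there. In the ENZ pair, the extremes were the polymerase subunit gene TWISTNB (-0.76, -0.99 and -1.20), NOL11 (-1.09, -1.51 and -0.94) and SDAD1 (0.01, -0.50 and -0.88) on the lower side, and the exosome gene EXOSC8 (-0.16, -0.21 and 1.248), DDX51 (-0.48, 0.58 and 0.87) and the H/ACA assembly gene SHQ1 (-0.83, -1.64 and 0.80) on the higher side. The 12 further genes of RNA polymerase I transcription were split, with 6 lower and 6 higher in each of the SR2211 and XY011 pairs and medians of 0.01 and 0.16. The 10 exosome genes had medians of -0.51, -0.56 and -0.06.

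Genes for the ribosomal proteins themselves had changes of the other sign in the SR2211 and XY011 pairs. Of 79 cytosolic ribosomal protein genes, 76 were higher with SR2211 and 74 with XY011, with medians of 0.24 and 0.38 and none past 2-fold, and 46 of 79 were higher with ENZ (median 0.03). After quantile scaling the first 2 medians shrank to 0.08 and 0.19, with 53 and 59 of the 79 higher, and after centring they were 0.31 and 0.52. Mitochondrial ribosomal protein genes lay between, with medians of -0.38, -0.57 and -0.18 over 76, 77 and 76 genes. Their medians, and those of the 93 other genes, stayed below 0 under either scaling.

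Several members carry snoRNA genes inside their own span. By GENCODE 29, 9 of the 40 (22.5%) hold at least 1 annotated snoRNA gene on the same strand, against 1.87% of 10866 protein-coding genes tested in the SR2211 pair. They are NCL (with SNORA75, SNORD20 and SNORD82), NOP56 (SNORA51, SNORD56, SNORD57, SNORD86 and SNORD110), NOP58 (SNORD11, SNORD11B and SNORD70 among them), DKC1 (SNORA36A and SNORA56), GNL3 (SNORD19, SNORD19B and SNORD69 among them), WDR43 (SNORD53, SNORD53B and SNORD92), TSR1, PPAN and POLR1C. With SR2211 the host genes ranged from -1.47 (NOP56) to 0.90 (GNL3), so they held both the lowest and the highest member, and their median was -0.84 against -0.62 for the other 31. The medians of the 2 sets were -0.86 and -0.74 with XY011 and -0.52 and -0.35 with ENZ. Whether reads of those small RNAs entered the deposited values of their hosts was not tested.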

How the data were processed

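RNA-seq values of 6 C4-2B libraries, in 3 pairs of 1 vehicle and 1 treated library, were used. The authors deposited RPKM for the SR2211 pair and FPKM for the XY011 and ENZ pairs, per the file headers. The submitters' processing notes list, with no roles or versions, GRCh37 and hg19 as builds and BWA, Cufflinks, Cuffdiff and Bowtie as tools. The annotation and any use of strand are not given in the sources here, so reads of antisense genes cannot be separated.

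Tables were joined by gene identifier (SR2211, XY011) or symbol (ENZ, where 177 lines with repeated names were summed and 22 names turned into dates were left out). Small RNA genes were left out (236, 248 and 193). The pseudocount was 1, with pandas 2.3.3 and numpy 2.4.6. With 1 library per group no test was run. In simulated data for the SR2211 pair, whole reads were found exactly for 84.4% of 500 genes, and for a further 15% up to a common factor. Depth of the SR2211 pair rests on 17 and 26 microRNA genes (100% and 96.2% whole within 0.01 read) and on the relative depth of 0.996. Intervals cover counting error only. The members and lists were chosen with earlier results of these data known. Named are the 5 largest decreases and 5 largest increases or smallest decreases of each pair, the most abundant member of each role and, of the other genes, the 3 largest each way. Alternatives were another pseudocount, minimum, scaling and size.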

Additional observations from a re-analysis of the deposited data

Results flagged for a closer look

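GNL3 and POLR1C had changes of opposite sign, each of log2 0.3 or more, in different pairs. GNL3 was higher with SR2211 (0.90) and XY011 (0.93) and lower with ENZ (-0.32). POLR1C was lower with SR2211 (-0.44) and XY011 (-0.65) and higher with ENZ (0.50). With 1 library per group the difference between pairs was not tested.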

How the results depend on the processing

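The members called lower with SR2211 numbered 7 as reported, 4 after centring on the median gene, 3 after quantile scaling and 26 at a 1.5-fold size. Centring on genes with a mean of 10 or more, chosen after seeing the data, gave 3. The shares of all genes called lower at these settings were 5.75%, 4.675%, 4.95%, 17.2% and 4.14% in turn. The members' median with SR2211 was -0.55 after quantile scaling and -0.53 after that last centring. At 1.5-fold, 27 members were lower with XY011 and 8 with ENZ, and of the other biogenesis genes 39, 39 and 11 with SR2211, XY011 and ENZ. The shares of all genes lower by 1.5-fold were 17.2%, 27.8% and 12.4% in these pairs. The other biogenesis genes called lower with SR2211 numbered 5 after quantile scaling and 5 after the last centring. All other counts of genes called lower stayed within 1.5 times, and all medians of the members stayed negative. Of 225 recomputed changes of named members, 225 moved by under 0.25, and the sign turned for NPM1 with SR2211 and with XY011. No paired analysis was possible because each group has 1 library, and no library could be left out. Depth limits PPAN most, with 49 reads in the SR2211 vehicle, and is unknown for the XY011 and ENZ pairs.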
